A study of Mus musculus with 15 samples.

Results

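Both groups compared here are Jmjd1a knockdown 3T3-L1 cells on day 2 of adipocyte differentiation, and they differ in whether a LacZ control construct was added. The comparison takes the 3 libraries titled shJmjd1a plus LacZ and the 3 titled shJmjd1a, 6 of the 15 RNA-seq libraries of the study, and describes them across all genes. The members were taken from the titles, with no measured value involved. 3T3-L1 cells are mouse preadipocytes that become fat cells after a hormone cocktail. The study asked how JMJD1A, the histone demethylase encoded by Kdm3a (formerly Jmjd1a), acts in that process.

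The shJmjd1a cells carry a pMXs retroviral vector expressing a short hairpin RNA against Jmjd1a and were selected with an antibiotic into a stable line. The shJmjd1a plus LacZ cells are shJmjd1a cells infected again with a retrovirus encoding β-galactosidase, a bacterial enzyme used as a neutral control protein, and selected again. The methods name puromycin and blasticidin S for selection, without saying which drug went with which vector. Insulin, dexamethasone and IBMX were given to both from day 0. The other libraries, used here only for reference, are shEmpty (the vector without a hairpin) and shJmjd1a cells re-expressing hairpin-resistant wild-type JMJD1A (shJmjd1a plus WT) or its iron-binding mutant (shJmjd1a plus Mut), with 3 libraries each. The LacZ protein, the further infection, the further selection and the separate establishment of the lines come together in the 6 libraries and cannot be told apart. The labels do not say that replicates were separate cultures, so p-values measure only the spread between these libraries, which may be technical.

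Depth was similar in the 6 libraries. Total counts lay between 11468837 and 12742673 in the shJmjd1a libraries and between 14104133 and 15046646 in the shJmjd1a plus LacZ libraries, so every LacZ library was the deeper. Drawing all libraries down to the smallest total left 300 genes higher and 306 lower, against 327 and 321 at full depth. Values below are CPM, counts scaled to a common library size by TMM within the 6 libraries, and a difference is the log2 fold change of shJmjd1a plus LacZ over shJmjd1a with its standard error (SE). A gene was called when its Benjamini-Hochberg adjusted p in the quasi-likelihood test of edgeR was under 0.05.

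The cell type was checked by its markers. All 9 preadipocyte or fibroblast markers and all 7 adipocyte markers were measured in every library. Their sums lay between 20630 and 21913 CPM without LacZ and between 24987 and 25325 CPM with it for fibroblast markers, and between 2501 and 2625 CPM against 3166 and 3257 CPM for adipocyte markers. Markers of blood, vessel, epithelial and muscle cells were near 0. Summed over each list, 9 macrophage markers reached at most 4.77 CPM, 8 endothelial markers 1.49 CPM, 8 epithelial markers 0.853 CPM and 8 skeletal muscle markers 5.12 CPM. Adgre1, the macrophage antigen F4/80, and the endothelial genes Tie1 and Erg had 0 counts in all 6 libraries, as did the muscle factors Myod1, Myog and Myf5. The muscle sums were 2.34 to 3.33 CPM without LacZ and 3.61 to 5.12 CPM with it. Osteoblast markers (4 of 7 tested, 1 called higher) summed to 205 to 215 CPM against 242 to 256 CPM, and chondrocyte markers (2 of 6 tested, 1 called higher) to 192 to 206 CPM against 220 to 231 CPM, while Sp7 and Col2a1, which define those cells, had 0 counts. Neuronal markers summed to 37.0 to 38.9 CPM against 38.8 to 44.8 CPM. These sums move with the groups, and their part in the results below was not tested.

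Adipogenesis runs through a transcription factor cascade. Insulin, the glucocorticoid dexamethasone and the cyclic AMP-raising agent IBMX induce early C/EBP factors, which switch on Pparg and Cebpa, and these in turn activate genes of lipid uptake, storage and adipokine secretion. Matrix genes of the fibroblast state remain active in the first days. JMJD1A removes mono- and dimethyl marks from lysine 9 of histone H3, a modification linked to silent chromatin. Retroviral transduction is known to be able to trigger antiviral and interferon-induced genes in many cells, and drug selection leaves a subset of the starting population.

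The targeted gene was examined first. Kdm3a (chromosome 6, 71538968 to 71582899, minus strand, mm9) stood at 129, 128 and 138 CPM in the shJmjd1a libraries and at 122, 117 and 119 CPM in the shJmjd1a plus LacZ libraries. The groups did not overlap, although the log2 fold change of -0.14 (SE 0.0519) did not pass the test, with an adjusted p of 0.14 by edgeR. On the scale of all 15 libraries, mean Kdm3a was 174 CPM in shEmpty cells, 131 CPM in shJmjd1a cells and 119 CPM in shJmjd1a plus LacZ cells, so both knockdown lines were below the control line. The 2 other members of the demethylase family were close to level. Kdm3b differed by -0.03 (adjusted p = 0.841 by edgeR) and Jmjd1c by -0.03 (adjusted p = 0.866). Glb1, the mouse's own lysosomal β-galactosidase gene, was at 27.1, 31.6 and 29.0 CPM without LacZ and at 33.9, 32.1 and 35.8 CPM with it, a difference of 0.21 (SE 0.0857) that did not pass the test (adjusted p = 0.171). Reads of the bacterial LacZ sequence were not analysed here, so the level of the construct itself was not measured.

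Across the genome the 2 knockdown lines were close, and 648 genes (5.26%) passed the test. Of 12313 genes tested, 327 (2.66%) were higher in shJmjd1a plus LacZ cells and 321 (2.61%) were lower. Most calls were small. Only 9 genes rose and 11 fell by at least 1 on the log2 scale, the median absolute log2 fold change was 0.28 among called genes and 0.095 among all genes, and the median over all genes was -0.003. The groups did not overlap in 635 of the 648 called genes, which the call itself favours, and in 21.7% of all genes tested. Before adjustment 2134 genes had a p under 0.05 by edgeR, so genes that were not called need not be level. For scale, shJmjd1a differed from shEmpty, a comparison that shares the 3 shJmjd1a libraries, in 46.2% of 12272 genes. The counts depended on single libraries. Leaving out shJmjd1a replicate 1 gave 186 higher and 162 lower genes, leaving out shJmjd1a replicate 2 gave 208 and 208, leaving out shJmjd1a plus LacZ replicate 2 gave 217 and 209, and leaving out shJmjd1a plus LacZ replicate 3 gave 165 and 150.

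**Figure D1:**
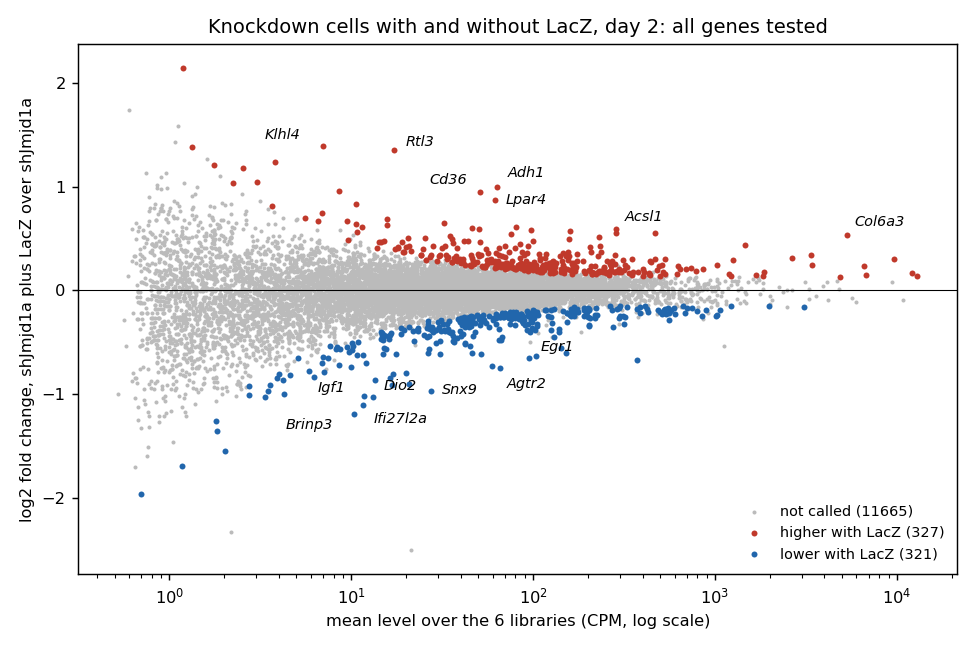
Log2 fold change of shJmjd1a plus LacZ over shJmjd1a (vertical) against the mean level over the 6 libraries in CPM (horizontal, log scale). Each point is 1 of the 12313 genes tested. Red points are the 327 genes called higher with LacZ, blue points the 321 called lower and grey points the rest, and most called genes lie within 1 of the zero line.

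The largest increases among called genes of at least 5 CPM without overlap between the groups were in genes of varied function. Adh1, an alcohol dehydrogenase that also oxidises retinol (chromosome 3, 137923955 to 137953662, plus strand), was at 42.7, 43.6 and 41.1 CPM in shJmjd1a libraries and at 86.8, 81.1 and 85.8 CPM with LacZ. It had the smallest adjusted p of all genes (3.4e-11 by edgeR) and a log2 fold change of 0.99 (SE 0.0644). Every LacZ library lay far above every shJmjd1a library. Cd36, the fatty acid transporter of fat cells (chromosome 5, 17287508 to 17394777, minus strand), went from 37.4, 32.6 and 33.8 CPM to 69.7, 66.5 and 64.8 CPM, a log2 fold change of 0.95 (SE 0.0719, adjusted p = 4.96e-10).

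Neighbouring genes on the X chromosome were among the largest increases. Rtl3, a gene derived from an ancient retrotransposon (chromosome X, 104032421 to 104035983, minus strand), was at 9.74, 11.6 and 7.84 CPM without LacZ and at 26.5, 23.5 and 24.4 CPM with it (log2 fold change 1.35, SE 0.124, adjusted p = 1.74e-08 by edgeR). Lpar4, a receptor for lysophosphatidic acid, lies 79980 bases further along and went from 41.8, 45.1 and 44.2 CPM to 78.3, 82.7 and 79.4 CPM (log2 fold change 0.87, SE 0.0646, adjusted p = 4.81e-10). Klhl4, farther along the same chromosome, had the largest log2 fold change of the 30 genes selected by size, 1.39 (SE 0.175), with 3.74, 4.03 and 3.80 CPM against 10.00, 9.40 and 10.98 CPM. In shEmpty cells Rtl3 averaged 0.760 CPM, Lpar4 5.38 CPM and Klhl4 0.300 CPM on the scale of all 15 libraries. All 3 genes were therefore far below both knockdown lines in the control line.

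The other genes in this selection were Angptl1, a secreted angiopoietin-like protein (0.96), Ppp1r3d, a glycogen-targeting subunit of protein phosphatase (0.83), the fat cell hormone gene Adipoq (0.75), 3110039M20Rik (0.69), the bicarbonate transporter Slc4a10 (0.69), the peptidase Phex (0.67), the lysosomal mannosidase Manba (0.67), the secreted Wnt-pathway modulator Dkk3 (0.65), the matrix proteoglycan Lum (0.64) and the calcium pump Atp2b4 (0.63), all as log2 fold changes. Angptl1, Ppp1r3d, Slc4a10, Phex, Dkk3, Lum and Atp2b4 kept their calls whichever single library was left out. The call of 3110039M20Rik was lost in 5 of the 6 such fits (largest adjusted p = 0.206, without LacZ replicate 3) and that of Manba in 4 (largest adjusted p = 0.202, without shJmjd1a replicate 2).

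**Figure D2:**
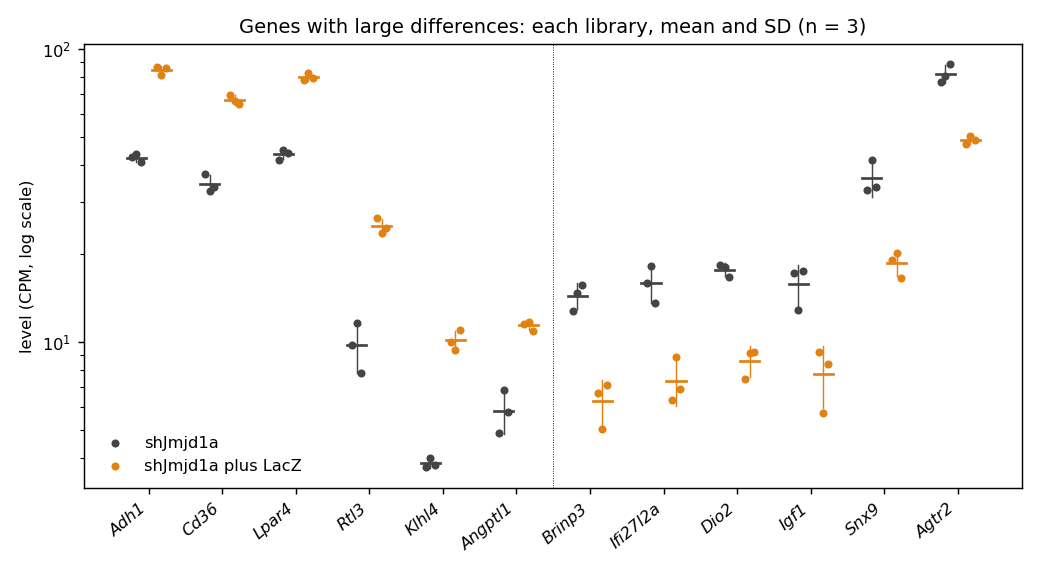
Level of 12 genes with large differences in each of the 6 libraries (CPM, log scale). Dots are libraries, horizontal bars the mean and vertical lines the SD of 3 libraries, in dark grey for shJmjd1a and in orange for shJmjd1a plus LacZ. The 6 genes to the left of the dotted line lie higher with LacZ in every library and the 6 to the right lower. The selection required no overlap between groups.

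The largest decreases, chosen by the same rule, included a growth factor and a thyroid hormone enzyme. Brinp3, a gene first described in nerve cells (chromosome 1, 148342759 to 148749602, plus strand), fell from 12.8, 14.7 and 15.7 CPM to 6.71, 5.06 and 7.13 CPM, a log2 fold change of -1.19 (SE 0.151, adjusted p = 4.82e-06 by edgeR). Igf1, insulin-like growth factor, was at 17.1, 12.9 and 17.4 CPM without LacZ and at 9.26, 5.70 and 8.41 CPM with it (-1.01, SE 0.158, adjusted p = 0.000135). Dio2, which converts thyroxine to active thyroid hormone and responds to cyclic AMP, was at 18.4, 17.97 and 16.6 CPM against 7.45, 9.19 and 9.27 CPM (-1.03, SE 0.129, adjusted p = 3.77e-06). That no LacZ library of these 3 genes lay within the range of the shJmjd1a libraries was required by the selection.

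Snx9, an endocytic sorting protein, went from 32.9, 41.9 and 33.8 CPM to 19.1, 20.1 and 16.5 CPM (-0.96, SE 0.103). Agtr2, an angiotensin receptor, went from 77.2, 80.5 and 88.6 CPM to 47.5, 50.2 and 48.8 CPM (-0.75, SE 0.0659). These were the most highly expressed genes of the 15 selected decreases. The keratin genes Krt13 (-0.90) and Krt15 (-0.85), which lie 10191 bases apart on chromosome 11, fell together in cells where the 8 epithelial markers stayed near 0. The remaining decreases were in the interferon-inducible Ifi27l2a (-1.11), the surface glycoprotein Cd24a (-0.91), the lectin Cd33 (-0.86), the small GTPases Rhou (-0.80) and Rac3 (-0.73), the peptidase inhibitor Pi16 (-0.80), the orphan receptor Gpr162 (-0.78) and the killer lectin-like receptor Klra17 (-0.78). Of the 15, Gpr162 lost its call without shJmjd1a replicate 1 (adjusted p = 0.0608) or LacZ replicate 3 (adjusted p = 0.0621), and Klra17 without shJmjd1a replicate 3 (adjusted p = 0.0714) or LacZ replicate 1 (adjusted p = 0.0515).

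Part of the fat cell program was higher in shJmjd1a plus LacZ cells. Of 22 adipocyte markers tested, 9 rose and none fell, beside 2.66% of all genes that rose, and their median log2 fold change was 0.27 against -0.003 over all genes. The summed level of the 22 was 3905, 3857 and 3737 CPM in shJmjd1a libraries and 4637, 4640 and 4719 CPM with LacZ, with no overlap. Single libraries moved the count of 9 to between 5 (without shJmjd1a replicate 1) and 7, with 6 without shJmjd1a replicate 2, LacZ replicate 1 or LacZ replicate 3. The list shares genes with the lipid synthesis list below.

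Among the adipocyte markers that rose, Acsl1, which activates fatty acids with coenzyme A, went from 226, 220 and 233 CPM to 355, 334 and 336 CPM (0.60, SE 0.0455, adjusted p = 5.07e-10 by edgeR). Plin1, the coat protein of the lipid droplet, went from 35.4, 32.4 and 36.8 CPM to 50, 46.7 and 49.2 CPM (0.48, SE 0.0757, adjusted p = 0.000118). Lpl, the lipase that releases fatty acids from lipoproteins, rose by 0.32 and Fabp4, a fatty acid carrier, by 0.35, both with separate groups. Adipoq was low in both lines, at 5.31, 5.40 and 4.89 CPM without LacZ and 9.87, 9.76 and 6.49 CPM with it (0.75, SE 0.186, adjusted p = 0.0137). Its call was lost without shJmjd1a replicate 1 (adjusted p = 0.0567), LacZ replicate 1 (0.081) or LacZ replicate 2 (0.0725). In shEmpty cells Adipoq averaged 52.4 CPM, Plin1 178 CPM and Acsl1 872 CPM, against 8.68, 48.5 and 341 CPM in shJmjd1a plus LacZ cells on that scale, so all 3 remained below the control line.

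Of 16 adipogenic transcription factors, 2 rose and none fell, beside 2.66% of all genes that rose, with a median log2 fold change of 0.09. Cebpa, a central factor of the late cascade, was at 81.9, 78.4 and 66.8 CPM in shJmjd1a libraries and at 102, 93.3 and 98.0 CPM with LacZ (0.37, SE 0.0658, adjusted p = 0.000554 by edgeR), and Stat5a rose by 0.28 (adjusted p = 0.000545). Pparg, its partner and the receptor for thiazolidinediones, differed by 0.12 (SE 0.0621) and did not pass the test (adjusted p = 0.302). The other fat cell differentiation genes singled out by the study did not pass either. Their log2 fold changes were 0.11 for the phosphatidate phosphatase Lpin1, 0.39 for the adipokine Retn at under 4 CPM, 0.06 for Srebf1, 0.12 for Tmem120a, -0.01 for Bbs2, -0.04 for Clip3, -0.13 for Nr4a1 and 0.13 for Zfpm2. Nr4a1 passed only without shJmjd1a replicate 3 (adjusted p = 0.0295).

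Of 21 fatty acid and triglyceride synthesis genes, 3 rose and none fell, beside 2.66% of all genes that rose (median 0.06). Elovl6, a fatty acid elongase, rose by 0.43 (SE 0.0599, adjusted p = 1.8e-05 by edgeR), from 59.1, 61.3 and 59.7 CPM to 81.5, 82.1 and 79.2 CPM. Agpat2 and Gpam, acyltransferases of triglyceride synthesis, rose by 0.34 and 0.28. Both calls were near the threshold (adjusted p = 0.0328 for Agpat2 and 0.026 for Gpam by edgeR). Agpat2 lost its call whichever of the 6 libraries was left out (largest adjusted p = 0.132, without LacZ replicate 2). Gpam lost it in 4 of the 6 fits (largest adjusted p = 0.17, without shJmjd1a replicate 1). Over all alternative fits the log2 fold change stayed between 0.273 and 0.385 for Agpat2 and between 0.232 and 0.315 for Gpam. Of 23 cholesterol synthesis genes none rose, and their median was -0.01.

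Part of the structural matrix genes were also higher with LacZ. Of 40 collagen and matrix genes, 18 rose and 1, the basement membrane gene Nid2, fell, beside 2.66% and 2.61% of all genes (median 0.12, 28 above and 12 below 0). Nid2 lost its call without shJmjd1a replicate 1 or any LacZ library. Summed, the 40 genes took 87052, 86151 and 86185 CPM in shJmjd1a libraries and 100537, 95494 and 97082 CPM with LacZ. Col6a3, a chain of the beaded filament collagen around fat cells, was at 4371, 4247 and 4427 CPM against 6739, 5969 and 6244 CPM (0.54, SE 0.0419, adjusted p = 6.27e-10 by edgeR). Tnc, tenascin C, rose by 0.56 (SE 0.0584) and Col11a1 by 0.52 (SE 0.0493), from 182, 188 and 198 CPM to 286, 257 and 270 CPM. The abundant fibrillar collagen Col3a1 rose by 0.30, from 8833, 8905 and 8329 CPM to 10728, 10673 and 10779 CPM. Lum, a proteoglycan that spaces collagen fibrils, was low at 8.52, 7.82 and 8.46 CPM against 12.2, 13.7 and 12.8 CPM (0.64, SE 0.137). The count of 18 fell to 12 without LacZ replicate 3.

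Preadipocyte and fibroblast genes moved in both directions. Of 24 tested, 9 rose (37.5%) and 4 fell (16.7%), beside 2.66% and 2.61% of all genes (median 0.16). Those that rose were Lum, Col3a1, Col1a1, Col1a2, Postn, Dcn and Fn1 of the matrix list above, with Sox9 and Dlk1. The 4 that fell were Pi16, Ly6a, Pdgfrb and Thy1, while 16 of the 24 lay above 0 and 8 below. The 4 do not stand for progenitor markers as a group, since Dlk1, a preadipocyte gene of the same list, rose. Pi16, found on universal fibroblast progenitors, went from 24.6, 26.3 and 25.1 CPM to 13.8, 15.2 and 14.8 CPM (-0.80, SE 0.102, adjusted p = 4.96e-06 by edgeR). Ly6a, the Sca-1 antigen, went from 17.7, 20.5 and 15.99 CPM to 11.3, 10.6 and 13.5 CPM (-0.61, SE 0.127, adjusted p = 0.00272). Pdgfrb, a platelet-derived growth factor receptor, fell by 0.34 on the log2 scale and Thy1 by 0.22. In bulk RNA, a different share of cells in a state and a different level per cell cannot be told apart.

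**Figure D3:**
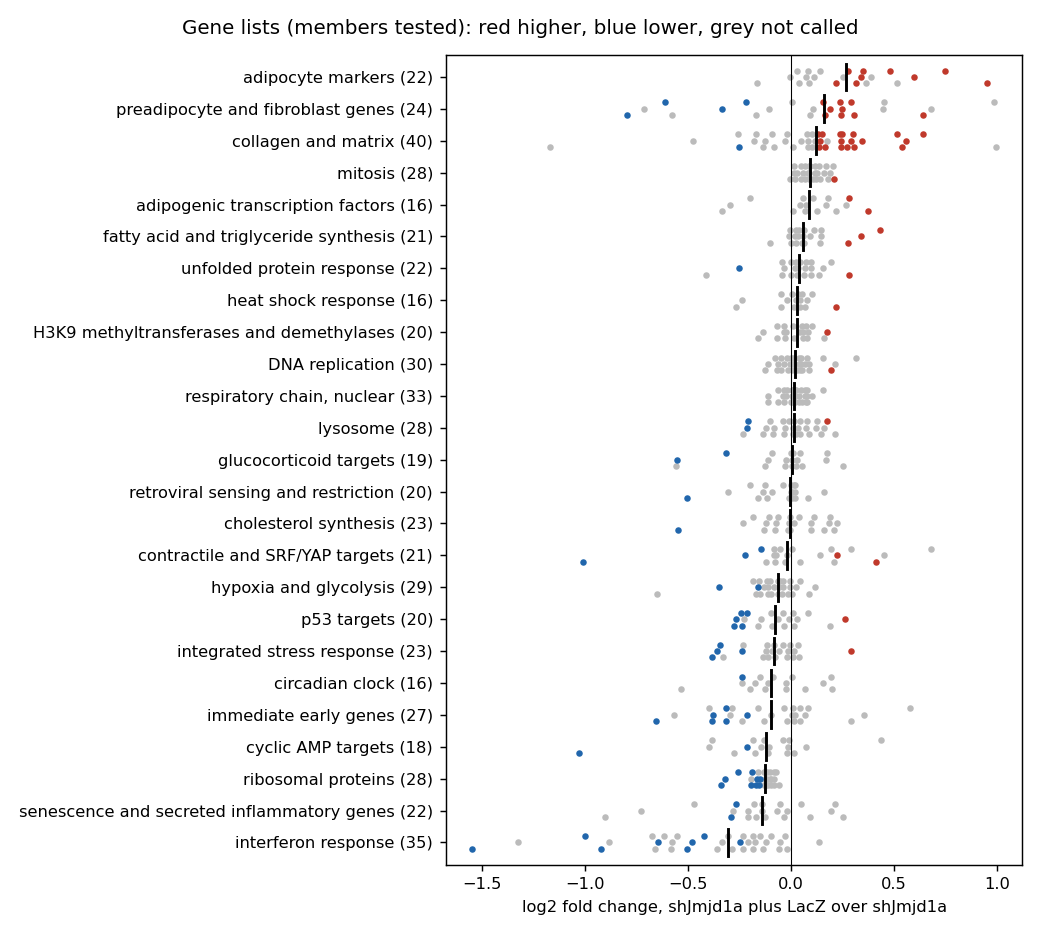
Log2 fold change of shJmjd1a plus LacZ over shJmjd1a for the members of 25 gene lists, ordered by median. Each dot is a gene (red called higher, blue called lower, grey not called), the black bar is the list's median and the number in brackets the members tested. Adipocyte markers lie at the top with a median of 0.27 and interferon response genes at the bottom with a median of -0.31.

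Some interferon-induced genes were lower in shJmjd1a plus LacZ cells. Of 35 tested, 8 fell and none rose, beside 2.61% of all genes that fell, and 34 of the 35 had a log2 fold change below 0 (median -0.31). Their summed level was 2727, 2801 and 2593 CPM in shJmjd1a libraries and 2307, 2597 and 2413 CPM with LacZ, so that LacZ replicate 2 reached the lowest shJmjd1a library. Much of the list was expressed at low levels, where the counts of single genes are imprecise. The count of 8 fell to 5 without LacZ replicate 1 or LacZ replicate 3.

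Bst2, the antiviral membrane protein tetherin, was at 51.0, 49.5 and 47.5 CPM without LacZ and at 32.3, 37.7 and 34.2 CPM with it (-0.51, SE 0.0766, adjusted p = 6.67e-05 by edgeR). Stat2, a transcription factor of the interferon receptor pathway, was at 48.3, 43.03 and 50.1 CPM against 33.5, 37.6 and 34.4 CPM (-0.42, SE 0.0789, adjusted p = 0.000928). B2m, the light chain of class I histocompatibility molecules, was the most abundant of the 8 and fell by 0.25 (log2), with means of 922 and 777 CPM. These 3 genes had separate groups at levels where counting error is small.

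Ifit2, an antiviral RNA-binding protein, was at 9.31, 7.90 and 8.31 CPM against 5.23, 5.70 and 5.35 CPM (-0.64, SE 0.167, adjusted p = 0.0191 by edgeR), and lost its call without shJmjd1a replicate 1 (adjusted p = 0.119), LacZ replicate 1 (0.0622) or LacZ replicate 3 (0.0759). Parp14, a mono-ADP-ribosyltransferase, differed by -0.48 (adjusted p = 0.0281) and lost its call in 4 of the 6 fits, with the largest adjusted p of 0.246 without shJmjd1a replicate 3. The other called members, Oas2, Oasl2 and Mx2, averaged under 5 CPM. Of 20 sensors and restriction factors for retroviruses, only Bst2, which is also in the interferon list, was called, and the median of that list was -0.01. Both Ifit2 and Stat2 were higher on average in both knockdown lines than in shEmpty cells. Mean Ifit2 was 1.70 CPM in shEmpty, 8.48 CPM in shJmjd1a and 5.41 CPM in shJmjd1a plus LacZ cells, and mean Stat2 was 23.4, 46.999 and 35.1 CPM.

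The promoters of the called interferon genes are shown because the members moved together and share a known element. The interferon-stimulated response element was searched as a pair of GAAA repeats separated by 2 free bases, on both strands in the 250 bases before each gene's start (RefSeq sequences, GRCm38.p6). A window was given for 25 of the 35 tested members, 71.4%, which is too few to stand for the list. Of these 25, 11 (44%) held the letters, as did 3.04% of the 9499 tested genes with a window and 3.46% of all 27025 genes of the table. Of the 5 called members with a window, 3 held them, and their windows follow 5′ to 3′ with the matches in capitals. The B2m window is chr2:122147437-122147686 (plus strand), with the match from 139 to 130 bases before the start. The Bst2 window is chr8:71537473-71537722 (minus strand), where a pair of overlapping matches runs from 130 to 115 bases before the start. The Stat2 window is chr10:128270248-128270497 (plus strand), where the match is on the opposite strand, 222 to 213 bases before the start. A match is a description and not a binding site.
B2m: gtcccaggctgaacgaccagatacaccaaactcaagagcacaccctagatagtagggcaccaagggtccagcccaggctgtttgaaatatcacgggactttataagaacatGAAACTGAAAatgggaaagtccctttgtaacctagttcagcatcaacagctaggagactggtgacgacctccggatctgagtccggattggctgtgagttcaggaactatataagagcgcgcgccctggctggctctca
Bst2: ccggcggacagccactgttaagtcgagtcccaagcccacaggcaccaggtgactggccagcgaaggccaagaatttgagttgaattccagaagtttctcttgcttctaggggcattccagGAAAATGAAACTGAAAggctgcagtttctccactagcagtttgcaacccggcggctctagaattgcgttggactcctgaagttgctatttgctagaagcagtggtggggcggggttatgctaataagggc
Stat2: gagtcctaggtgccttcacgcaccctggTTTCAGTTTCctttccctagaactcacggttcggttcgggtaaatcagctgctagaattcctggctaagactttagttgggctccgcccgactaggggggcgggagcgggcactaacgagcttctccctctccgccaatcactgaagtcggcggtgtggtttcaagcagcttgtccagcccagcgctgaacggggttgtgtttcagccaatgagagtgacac

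Immediate early genes, which respond within minutes to growth factors and stress, were lower in part. Of 27 tested, 6 fell and none rose, beside 2.61% of all genes that fell (median -0.10, 11 above and 16 below 0). Egr1, a zinc finger factor induced by growth factor signalling, was at 135, 113 and 103 CPM without LacZ and at 76.0, 68.0 and 78.4 CPM with it (-0.65, SE 0.0873, adjusted p = 0.000426 by edgeR). Ier2 (-0.38), the AP-1 subunits Junb (-0.38) and Fosl2 (-0.22), the RNA-destabilising protein Zfp36 (-0.32) and the phosphatase Dusp1 (-0.31) also fell. Within the shJmjd1a group, Egr1, Ier2 and Junb were highest in replicate 1 and lowest in replicate 3. The call of Junb was lost in 4 of the 6 fits (largest adjusted p = 0.133, without LacZ replicate 2) and that of Zfp36 in 3 (largest adjusted p = 0.1, without LacZ replicate 3), and the count of 6 was 4 without LacZ replicate 1 or LacZ replicate 3.

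Of 18 cyclic AMP targets, 2 fell (Dio2 and Fosl2) and none rose, beside 2.61% of all genes that fell. In this list 15 lay below 0 (median -0.12), and without shJmjd1a replicate 3 the number that fell was 4. Dusp1, of the immediate early list, which limits MAP kinase signalling, was at 143, 144 and 135 CPM without LacZ and at 115, 107 and 117 CPM with it (SE 0.0529, adjusted p = 0.000268 by edgeR). Dusp1 and Dio2 are shown because their windows hold the cyclic AMP response element TGACGTCA, a palindrome read alike on both strands, which 3.07% of tested genes with a window held. They were picked for holding it. The element was in 1 of 13 cyclic AMP targets with a window (7.69%), in 3 of 20 immediate early genes (15%), in 1 of the 4 called immediate early genes with a window, and in 3.27% of all genes called lower. The windows cover too few members to stand for either list. The Dusp1 window is chr17:26508473-26508722 (minus strand), with the element from 143 to 136 bases before the start. The Dio2 window is chr12:90739039-90739288 (minus strand), with the element from 95 to 88 bases before the start. The sequences are from RefSeq, GRCm38.p6, with the element in capitals.
Dusp1: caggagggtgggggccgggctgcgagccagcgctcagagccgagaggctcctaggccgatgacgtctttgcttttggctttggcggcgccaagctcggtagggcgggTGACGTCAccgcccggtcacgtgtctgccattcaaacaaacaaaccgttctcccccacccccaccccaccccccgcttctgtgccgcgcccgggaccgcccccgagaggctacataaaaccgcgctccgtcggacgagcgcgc
Dio2: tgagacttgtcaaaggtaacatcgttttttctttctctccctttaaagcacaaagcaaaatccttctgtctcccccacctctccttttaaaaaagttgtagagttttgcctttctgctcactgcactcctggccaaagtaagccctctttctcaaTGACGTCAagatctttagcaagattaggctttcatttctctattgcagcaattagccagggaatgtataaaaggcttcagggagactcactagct

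A few stress and growth arrest genes were called, in both directions. Of 23 integrated stress response genes, 4 fell and 1 rose (median -0.08), beside 2.61% and 2.66% of all genes. Trib3, a pseudokinase induced by this response, fell by 0.38 in log2 terms (SE 0.0833, adjusted p = 0.00433 by edgeR), from 35.5, 37.5 and 36.6 CPM to 26.2, 30.1 and 27.8 CPM, and Ddit3, the factor CHOP, and Ppp1r15a differed by -0.35 and -0.36. Cebpg rose by 0.29. Ddit3 lost its call without shJmjd1a replicate 1 (adjusted p = 0.0738) or LacZ replicate 3 (adjusted p = 0.0541), and Ppp1r15a in 4 of the 6 fits (largest adjusted p = 0.193, without shJmjd1a replicate 2). The number of stress response genes that fell was 1 without shJmjd1a replicate 1 or LacZ replicate 3.

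Of 20 p53 targets, 5 fell and 1 rose (median -0.08), beside 2.61% and 2.66% of all genes. Cdkn1a, the cell cycle inhibitor p21, was at 227, 225 and 219 CPM without LacZ and at 175, 191 and 192 CPM with it (-0.27, SE 0.0481, adjusted p = 0.000654 by edgeR). Trp53inp1 fell by 0.24 in log2 terms. Bax, a promoter of apoptosis, differed by -0.28 but lost its call in 5 of the 6 fits (largest adjusted p = 0.307, without shJmjd1a replicate 2), and Sesn1, which rose by 0.26, lost it in 4 (largest adjusted p = 0.114, without shJmjd1a replicate 2). The p53 targets that fell numbered 2 without shJmjd1a replicate 1 or LacZ replicate 3, and 3 without shJmjd1a replicate 2, LacZ replicate 1 or LacZ replicate 2. Of 22 senescence and secreted inflammatory genes, Cdkn1a and the macrophage growth factor Csf1 (-0.29) fell and none rose (median -0.14). Over all genes 2.61% fell, and 4 of the list fell without shJmjd1a replicate 3.

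Proliferation genes differed by little. Of 28 mitosis genes, 27 lay above 0 with a median of 0.09, and only Cenpf, a kinetochore protein, was called (0.21, adjusted p = 0.0374 by edgeR). Of 30 DNA replication genes, only Rrm2, a ribonucleotide reductase subunit, was called (0.19, adjusted p = 0.0398). These are 3.57% and 3.33% of the lists, near the 2.66% of all genes that rose. Neither call held by DESeq2. Each was also lost in at least 4 of the 6 fits without a library, where the adjusted p reached 0.192 for Cenpf without shJmjd1a replicate 2 and 0.26 for Rrm2 without LacZ replicate 2.

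Ribosomal protein genes all lay below 0. Of 28 tested, 9 fell and none rose, beside 2.61% of all genes that fell, with a median log2 fold change of -0.13. Rps27 was at 245, 232 and 204 CPM without LacZ and at 180, 185 and 173 CPM with it (-0.34, SE 0.0555, adjusted p = 0.000231 by edgeR), Rps2 differed by -0.32 and Rps15 by -0.19. Rps15 lost its call in 4 of the 6 fits (largest adjusted p = 0.178, without shJmjd1a replicate 2). The result depended strongly on single libraries. The summed level of the 28 was 23282, 23970 and 21003 CPM in shJmjd1a replicates 1 to 3 and 20134, 21284 and 20901 CPM with LacZ, so shJmjd1a replicate 3 lay within the LacZ range. Without that library 26 of the 28 fell, whereas 2 fell without shJmjd1a replicate 1, 3 without shJmjd1a replicate 2, and 3 without LacZ replicate 1 or LacZ replicate 3. Many ribosomal protein genes share reads with processed pseudogenes, so their counts are uncertain. Transcript length moved with this list and with the matrix list. The median summed exon length was 1730 bases for the ribosomal protein genes, 6685 bases for the matrix genes, 4847 bases for all genes that rose and 3752 bases for all that fell. With tested genes in 5 equal bins of length, the median log2 fold change was -0.025 in the shortest and 0.006 in the longest, and the part of length in the list results was not tested.

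The remaining lists had medians between -0.10 and 0.04. Beside 2.66% of all genes that rose and 2.61% that fell, shares were largest for contractile and SRF or YAP targets (9.52% and 14.3%). Of the glucocorticoid targets 10.5% fell. Each share rests on a few genes. Of 29 hypoxia and glycolysis genes, Vegfa, an angiogenic growth factor, fell by 0.35 in log2 terms (SE 0.0467, adjusted p = 9.81e-06 by edgeR), from 295, 310 and 317 CPM to 235, 253 and 235 CPM, and Gpi1 differed by -0.16 with an adjusted p of 0.0482. Gpi1 lost its call in 4 of the 6 fits (up to 0.307, without shJmjd1a replicate 2), and the hypoxia genes that fell numbered 6 without shJmjd1a replicate 3 and 1 without shJmjd1a replicate 1, shJmjd1a replicate 2 or LacZ replicate 3. Of 19 glucocorticoid targets, Lcn2, an iron-carrier binding protein, fell by 0.55 in log2 terms (SE 0.0574), from 165, 178 and 163 CPM to 104, 120 and 122 CPM, and Dusp1 was the other call. These 2 glucocorticoid targets kept their calls whichever library was left out.

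Of 16 circadian clock genes only Per2 was called (-0.24), and it was lost without any single library (largest adjusted p = 0.109, without LacZ replicate 3). The unfolded protein response had 1 call in each direction among 22 genes, Dnajb9 (0.28) and Ero1a (-0.25). Dnajb9 lost its call without LacZ replicate 3 (adjusted p = 0.0701 by edgeR) and Ero1a without LacZ replicate 1 (0.0623) or LacZ replicate 3 (0.0895). Of 16 heat shock genes, Hspd1, a mitochondrial chaperonin, rose by 0.22 (adjusted p = 0.001). Among 28 lysosomal genes, Ctsd (-0.21) and Man2b1 (-0.21) fell and Atp6v0d1 (0.18) rose. Man2b1 lost its call in 3 of the 6 fits (largest adjusted p = 0.0964, without shJmjd1a replicate 2) and Atp6v0d1 in 4 (largest 0.157, without LacZ replicate 3).

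Of 21 contractile and SRF or YAP targets, 2 rose (Mylk, 0.41, and Amotl2, 0.23) and 3 fell, Fhl1, Ccn1 (-0.22) and Axl (-0.14). None of the list fell without shJmjd1a replicate 1, shJmjd1a replicate 2 or LacZ replicate 3, and 1 fell without LacZ replicate 1. Amotl2 kept its call in every fit without a library. Mylk lost it without shJmjd1a replicate 1 (adjusted p = 0.0759 by edgeR) or LacZ replicate 3 (0.0541), Ccn1 in 4 fits (largest 0.14, without shJmjd1a replicate 1) and Axl in 5 (largest 0.263, without LacZ replicate 3). Of 20 histone H3 lysine 9 methyltransferases, demethylases and readers, only Cbx5, heterochromatin protein HP1 alpha, was called (0.18, adjusted p = 0.0447), which was lost in 5 of the 6 fits (largest 0.302, without shJmjd1a replicate 1). None of 33 nuclear-encoded respiratory chain genes was called by edgeR or by DESeq2, and their log2 fold changes lay between -0.11 and 0.16.

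The calls were not spread evenly over the chromosomes. On chromosome 17, 34 of 573 tested genes fell (5.93%) and 3 rose, and 182 genes (31.8%) had a log2 fold change above 0, against 49.1% of the 11632 placed genes. Chromosome 16 had the opposite pattern, with 23 of 382 genes higher (6.02%), 4 lower and 62.6% above 0. Other chromosomes were uneven too. On chromosome 1, 40 of 662 genes rose (6.04%) and 22 fell. On chromosome 14, 16 of 394 fell (4.06%) and 8 rose, and on chromosome 7, 38.9% lay above 0. The median log2 fold change was -0.062 on chromosome 17 and 0.037 on chromosome 16. On the other 18 it lay between -0.035 (chromosome 14) and 0.023 (chromosome 1). The shifts on chromosomes 17 and 16 were well under the size at which single genes were called. This grouping was looked at after the values were seen and carries no test. Median summed exon length was 3110 bases on chromosome 17 and 4208 bases on chromosome 16, against 3710 bases over all placed genes, and its part in these shifts was not tested.

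The same chromosomes separated all 15 libraries, which include the 6 from which these chromosomes were chosen. Each gene was centred on its mean over the 15, and the median was taken per chromosome. On chromosome 17 the 9 libraries with a second construct (LacZ, WT or Mut) lay between -0.033 and -0.003 and the 6 without (shEmpty and shJmjd1a) between 0.020 and 0.036. On chromosome 16 the 9 lay between 0.011 and 0.039 and the 6 between -0.078 and -0.018. Libraries not used for that choice, shEmpty against WT and Mut, were separate too. Those groups were also separate on most other chromosomes, among them 1, 5, 11, 13, 18 and X. On chromosome 17 shEmpty lay between 0.025 and 0.036, and WT and Mut between -0.029 and -0.003. On chromosome 16 shEmpty lay between -0.078 and -0.052, and WT and Mut between 0.011 and 0.039. The shJmjd1a libraries, also without a second construct, lay between -0.019 and -0.018 there, apart from shEmpty. The 9 and the 6 were also separate on chromosomes 12 and 14, and overlapped on the other 16. On chromosomes 5, 11, 16 and X, among others, the 3 shEmpty libraries stood apart from the other 12.

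**Figure D4:**
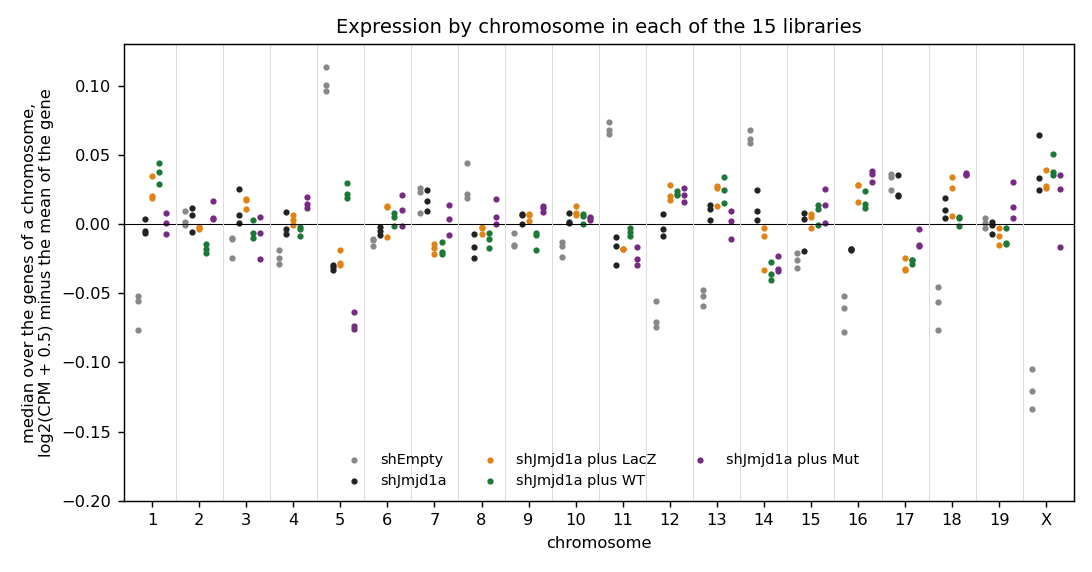
Median over the genes of each chromosome of log2(CPM + 0.5) minus the gene's mean over 15 libraries (vertical), for chromosomes 1 to 19 and X (horizontal). Each dot is a library, coloured by group. On chromosome 17 all LacZ, WT and Mut libraries lie below all shEmpty and shJmjd1a libraries, and on chromosome 16 above them.

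The WT and shEmpty libraries offered a second contrast of doubly infected with singly infected cells that shares no library with the first. Those cells express JMJD1A, from the construct or from the gene itself, and mean Kdm3a was 1697 CPM in shJmjd1a plus WT against 174 CPM in shEmpty cells, so line set and JMJD1A level cannot be told apart in it. Of 12390 genes tested, 2962 (23.9%) were higher and 3018 (24.4%) lower in shJmjd1a plus WT than in shEmpty. Of the 327 genes higher with LacZ, 157 (48.01%) were also higher there and 112 (34.3%) lower. The 157 are 5.30% of the genes higher in that contrast. Of the 320 lower genes that were tested in both, 123 (38.4%) were also lower, which is 4.08% of that list, and 104 (32.5%) were higher. All 4 shares exceed the 23.9% and 24.4% of all genes, in the same and in the opposite direction.

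The difference between the 2 contrasts was tested as an interaction over 12 libraries. It passed for 4060 of 12695 genes (32%), with 1947 above and 2113 below 0, including 220 genes higher with LacZ and 199 lower. The LacZ difference by which those genes were called is a part of the interaction, from the same libraries. Their counts are therefore favoured by that choice. For Adh1 the contrasts were alike in size, 0.99 with LacZ and 0.97 for WT over shEmpty, with an interaction of 0.02 (adjusted p = 0.89 by edgeR). Cd36 (0.95 and 0.83), Col6a3 (0.54 and 0.46), Dkk3 (0.65 and 0.46), Pi16 (-0.80 and -0.68), Krt13 (-0.90 and -1.12), Vegfa (-0.35 and -0.23), Rps27 (-0.34 and -0.43) and Brinp3 (-1.19 and -1.64) also had the same sign in both, and no interaction passed. A p over the threshold does not show that the contrasts were equal.

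Other genes parted between the contrasts. Adipoq was 0.75 with LacZ and -1.33 for WT over shEmpty, and Acsl1 0.60 and -0.77. Among lower genes, Igf1 was -1.01 and 0.85, Egr1 -0.65 and 1.26, and Ifi27l2a -1.11 and 2.31. All 5 interactions passed, from 2.08 for Adipoq to -3.42 for Ifi27l2a. The largest interactions were taken among called genes of at least 5 CPM without overlap between WT and shEmpty. A difference between WT and shEmpty was therefore fixed by that choice. Gap43, a growth cone protein, averaged 0.473 CPM in shEmpty, 11.5 CPM in shJmjd1a plus WT, 10.96 CPM in shJmjd1a and 10.8 CPM in shJmjd1a plus LacZ cells. Ostn, a secreted peptide gene, averaged 1.89, 29.3, 45.5 and 38.3 CPM in that order, and Cfd, the adipocyte protease adipsin, 24.0, 5.05, 1.80 and 2.57 CPM.

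Several called genes lay on 1 side in all libraries that carry a second construct. Over the 9 LacZ, WT and Mut libraries against the 6 shEmpty and shJmjd1a libraries, 71 of the 327 higher genes were above without overlap and 46 of the 321 lower genes below, where 0.999% and 0.755% of all tested genes lay above and below. These counts include the 6 libraries that made the calls. In the 9 other libraries alone, 6 with WT or Mut against 3 shEmpty, 126 of the 327 higher genes (38.5%) lay above and 98 (30.0%) below, beside 20.3% and 19.5% of all genes. Of the 321 lower genes, 90 (28.0%) lay above and 91 (28.3%) below in those libraries, about as many on either side. Among the genes named, those separate by second construct included Adh1, Lpar4, Rtl3, Dkk3 and Col6a3 above and Brinp3, Cd24a, Rhou, Pi16, Vegfa and Lcn2 below. Mean Brinp3 was 11.7 CPM in shEmpty and 14.3 CPM in shJmjd1a cells, and 6.28, 3.76 and 4.62 CPM in cells with LacZ, WT and Mut. Mean Vegfa was 282 and 306 CPM, against 240, 239 and 239 CPM.

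**Figure D5:**
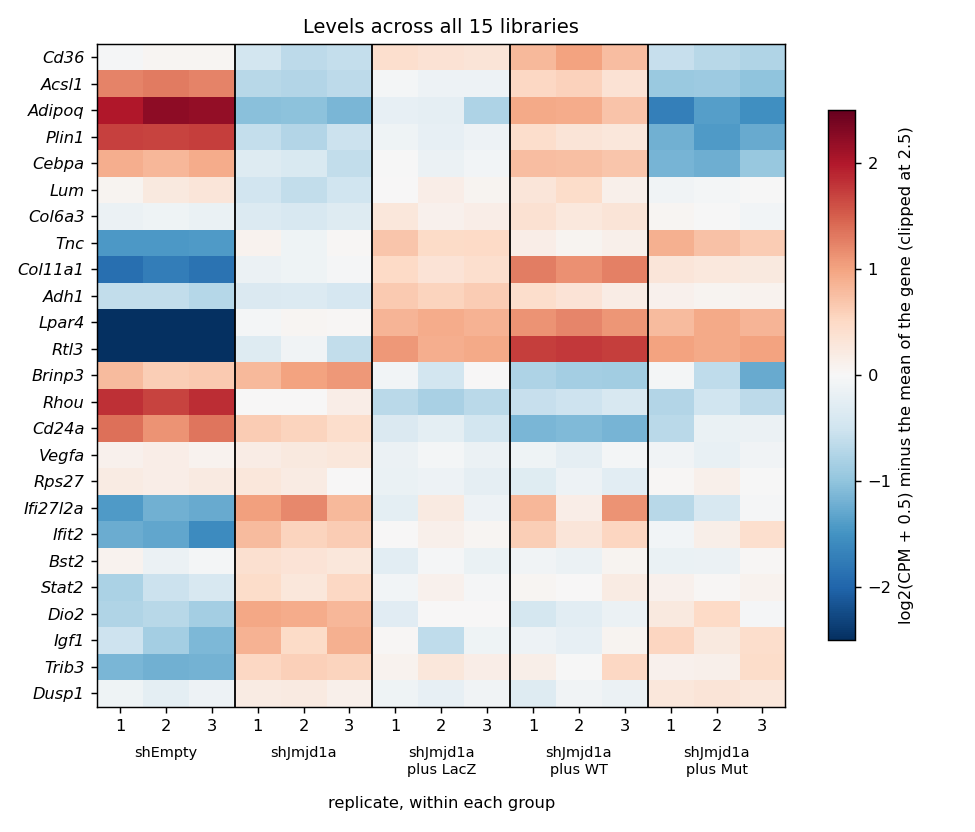
Levels of 25 named genes in all 15 libraries, as log2(CPM + 0.5) minus the gene's mean (colour, red high and blue low, clipped at 2.5). Columns are the 3 replicates of each of the 5 groups and rows are genes. Col6a3 and Adh1 are high and Brinp3 and Vegfa low in all 9 libraries with LacZ, WT or Mut, whereas Adipoq and Plin1 are highest in shEmpty and stay low in shJmjd1a plus LacZ.

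Some named genes overlap a gene on the opposite strand in the annotation. These are Adh1 (Gm16559), Dio2 (Gm16738), Tnc (8030451A03Rik), Agpat2 (Egfl7), Stat5a (Stat3), Ddit3 (Mars), Ppp1r15a (Tulp2), Hspd1 (Hspe1), Srebf1 (Rai1), Egr1 (Gm17507), Rps2 (Snhg9), Gpi1 (Gm17327) and Kdm3b (Gm17557). The strand setting of the counting is not given in the sources used here, so reads of the partners could not be told apart. Klra17, Ifi27l2a and the Oas genes have close relatives with which reads may be shared.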

How the data were processed

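RNA-seq counts of 6 libraries from 3T3-L1 cells on day 2 were compared, with 9 others for reference. The authors ran fastp on the reads, then HISAT2 against mm9, and deposited raw featureCounts counts per gene number, without normalization. The labels and the methods name different NEBNext kits, and only the latter a directional one. Counts were joined by gene number, of which 24191 of 26301 had a symbol (RefSeq, GRCm38.p6, names only) and 22613 were placed on mm9 through GENCODE M1. Gene numbers without a symbol held 0.500% of counts.

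Genes passing filterByExpr (minimum count 10) were tested with edgeR 4.0.16 in R 4.3.3 (TMM, robust dispersions, bias-adjusted quasi-likelihood F test without a block, Benjamini-Hochberg threshold 0.05), the study's tool. The test was checked on simulated counts. limma 3.58.1 and statmod 1.5.0 supported it, and DESeq2 1.42.0 was an alternative. Named genes were Kdm3a, Kdm3b, Jmjd1c, Glb1, the 15 largest called changes per direction with at least 5 CPM and no overlap, up to 4 called members per list with at least 5 CPM, the study's fat cell genes, the 5 smallest adjusted p-values and the 3 largest interactions per direction, the last with no overlap between WT and shEmpty. Other genes were named after their values were seen. Members and lists were chosen with earlier results of these data known.

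Promoters were also searched, on both strands and without further use, for the E-box, AP-1, sterol and CCAAT elements, which 9.90%, 5.30%, 1.16% and 41.2% of tested genes with a window held. A few named genes and their results are left out here.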

Additional observations from a re-analysis of the deposited data

Results flagged for a closer look

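The genes below had a LacZ difference that departed from the difference of shJmjd1a plus WT over shEmpty by the interaction test of edgeR (adjusted p under 0.05, 12 libraries). The value in brackets is the first log2 fold change minus the second. In all, 67 of 96 named genes passed, 26 with a value above 0 and 41 below, beside 15.3% and 16.6% of all genes. Most named genes were chosen by their LacZ difference, which is a part of the interaction, so the choice itself favours a pass. JMJD1A level and line set cannot be told apart in the second contrast. Kdm3a, which the WT construct encodes, had -3.42, and Glb1 had 0.59. Among the largest increases the test passed for Klhl4 (-3.92), Rtl3 (-4.45), Lpar4 (-3.31), Adipoq (2.08), Slc4a10 (-1.98), Manba (1.08), Lum (0.58) and Atp2b4 (-0.84). Among the largest decreases it passed for Ifi27l2a (-3.42), Dio2 (-1.597), Igf1 (-1.86), Cd24a (1.596), Krt15 (0.63), Rhou (1.51), Gpr162 (-1.69), Klra17 (-1.52) and Agtr2 (-0.74). Fibroblast, matrix and contractile genes that passed were Ly6a (-0.84), Pdgfrb (-0.51), Tnc (-0.99), Col11a1 (-2.54), Mylk (0.42), Amotl2 (0.20), Ccn1 (-1.53) and Axl (-0.36). The fat cell genes that passed were Cebpa (0.53), Pparg (0.52), Lpin1 (0.31), Retn (0.95), Srebf1 (0.43), Tmem120a (1.09), Nr4a1 (-0.34), Zfpm2 (-0.44), Acsl1 (1.37), Stat5a (0.45), Plin1 (1.85), Elovl6 (0.84), Agpat2 (1.15) and Gpam (0.72). Interferon, stress response and p53 genes that passed were Ifit2 (-2.80), Bst2 (-0.50), Parp14 (-1.19), Stat2 (-1.09), Trib3 (-1.88), Ppp1r15a (-0.87), Ddit3 (-0.85), Cebpg (0.25), Ero1a (-0.45), Hspd1 (0.65), Cdkn1a (-0.35), Trp53inp1 (-0.53) and Csf1 (-0.71). Immediate early, clock, hormone and cyclic AMP target genes that passed were Egr1 (-1.92), Ier2 (-0.90), Junb (-0.88), Zfp36 (-0.54), Per2 (-0.73), Lcn2 (-0.23), Dusp1 (-0.30) and Fosl2 (-0.74). The other list members that passed were Cenpf (-0.66), Man2b1 (0.67), Atp6v0d1 (0.16), Rps15 (0.20) and Cbx5 (-0.31). Among called genes of at least 5 CPM without overlap between WT and shEmpty, the 3 largest interactions per direction were, besides Rtl3, those of Cfd (2.85), Ldhb-ps (2.33), Garnl3 (2.10), Ostn (-4.24) and Gap43 (-4.69), of which Ldhb-ps is a pseudogene that shares reads with its parent gene.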

How the results depend on the processing

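Of the comparisons of named genes between the main fit and its alternatives, 1458 kept their direction and their side of the threshold, 165 lost the call, 1 gained it and 8 changed sign. Of the list medians, 371 moved by less than the spread between replicates and 29 by more. The 8 were all of uncalled genes near 0. Bbs2 was 0.014 with libraries drawn to 1 depth. With a library left out, Bbs2 ranged from -0.129 to 0.050, Kdm3b from -0.072 to 0.030, Jmjd1c from -0.086 to 0.049 and Clip3 from -0.073 to 0.017. RLE or upper-quartile scaling, DESeq2 (268 higher, 268 lower), no filter, a stricter filter, legacy or non-robust fits and 1 fit of 15 libraries (462 and 429) stayed within 1.5 times the 327 and 321 calls. An adjusted p under 0.01 left 163 and 139. Leaving out each replicate in turn gave 165 to 344 higher and 150 to 404 lower genes. The WT against shEmpty calls (2603 to 3027 and 2608 to 3055) and the interaction calls (3512 to 4063) stayed within 1.5 times. Same-numbered replicates did not deviate together (correlations -0.020, 0.069 and -0.028). That cannot show whether libraries of the same number were handled together, which the labels do not state. A replicate block gave 257 higher and 283 lower genes in the LacZ comparison, 2876 and 2934 for WT against shEmpty, and 4075 interactions. Genes under 5 CPM have too few counts for small differences to be resolved.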

Other observations

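Neat1 and Malat1, long RNAs retained in the nucleus, ND4L, Ptn and Adamts1 were chosen after their values were seen. Neat1 was at 413, 425 and 536 CPM without LacZ and at 302, 295 and 266 CPM with it, a log2 fold change of -0.67 (SE 0.116, adjusted p = 0.0339 by edgeR). Malat1 was at 1112, 1040 and 1828 CPM without LacZ and at 1024, 854 and 867 CPM with it, and its log2 fold change of -0.54 did not pass (adjusted p = 0.429). For both, shJmjd1a replicate 3, which also had the lowest summed ribosomal protein level of its group, was the highest library.

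ND4L, a mitochondrial gene, was at 104 CPM in shJmjd1a replicate 1 and 12.1 CPM in shJmjd1a plus LacZ replicate 1, and between 2.64 and 3.56 CPM in the other 4 libraries. Its log2 fold change of -2.502 had an SE of 1.88 and did not pass (adjusted p = 0.609 by edgeR).

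The gene for pleiotrophin, Ptn, a secreted growth factor, and Adamts1, a secreted metalloprotease, were among the abundant genes outside the lists that rose. Ptn went from 1289, 1232 and 1191 CPM to 1673, 1633 and 1734 CPM (0.44, SE 0.0414) and Adamts1 from 2977, 2966 and 2997 CPM to 3833, 3711 and 3758 CPM (0.34, SE 0.0375).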
